A study of Mus musculus with 4 samples.

Results

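The genes described here are 9 hematopoietic niche genes of marrow stroma, Cxcl12, Kitl, Il7, Angpt1, Lepr, Vcam1, Nes, Ebf3 and Foxc1, in mBMSCs, adherent stromal cells grown from mouse bone marrow. They were chosen by name, and each matched 1 of the 24346 rows of the expression table. RNA-seq was performed on 4 samples, 2 transfected with siScr, a scrambled control siRNA, and 2 with siZBP1, siRNA against ZBP1, a sensor of nucleic acids in the Z conformation. The comparison asks which transcripts depend on ZBP1 in these cells. All samples came from C57BL/6 mice, C57BL/6J by the study's methods, aged 3 months, and from femoral marrow, whose non-adherent cells were washed off after 3 days and whose colonies were collected after 2 weeks. Both groups received their siRNA with Lipofectamine RNAiMAX, and RNA was taken 72 h later. The study's methods list a pair of siRNAs against ZBP1, and which was used for RNA-seq, or whether the siZBP1 samples carry different or pooled ones, is not given in the sources used here. The samples of a group are described as duplicates of transfected cells, and whether these came from separate animals or isolations of cells is not given either. The p-values therefore measure the spread between these samples, which may be technical.

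Perivascular stromal cells of the marrow, which carry the leptin receptor, form much of the niche in which hematopoietic stem cells are kept. They secrete CXCL12, which retains stem cells and B cell progenitors, and stem cell factor, the product of Kitl, which maintains them. They also make interleukin 7 for developing lymphocytes, and the transcription factors Ebf3 and Foxc1 maintain their identity and their production of niche factors.

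Expression is given as FPKM, fragments scaled to transcript length and to the number mapped. Comparing levels of different genes in this unit depends on the transcript lengths used, which are not given in the sources used here. The FPKM of a sample summed to between 477974 and 492166, and the spacing of the lowest values gave a rough depth of 10 to 20 M fragments a sample, from which no counting error was computed. Zbp1 was at 86.0 and 62.0 FPKM in the siScr samples and at 11.5 and 11.6 FPKM in the siZBP1 samples, 6.40-fold lower in siZBP1 cells (limma log2 fold change -2.56, SE 0.16, adjusted p = 0.00322). Marker genes of stroma and of macrophages were both abundant. The 10 stromal markers summed to 4030 and 3565 FPKM in siScr cells and to 3651 and 3629 FPKM in siZBP1 cells. The 10 macrophage markers summed to 4555 and 5404 FPKM in siScr cells and to 8000 and 7474 FPKM in siZBP1 cells, so that the cultures held RNA of both kinds of cell and the macrophage sum was higher in both siZBP1 samples. Without Lyz2, the most abundant of them, the macrophage sum was 1741 and 1757 FPKM in siScr cells and 2129 and 2072 FPKM in siZBP1 cells.

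With limma, which fits a linear model to log2(FPKM + 1) of every gene and shares the variance between genes, 5 of the 8 niche genes tested fell after knockdown of ZBP1 (adjusted p under 0.05). These were Cxcl12, Kitl, Il7, Nes and Foxc1. By limma 0 of the 8 rose, also at an unadjusted p under 0.05, and Angpt1, Vcam1 and Ebf3 did not pass. Lepr, with a mean of 0.780 FPKM over the 4 samples, lay below the minimum mean of 1 FPKM and was not in this fit. Over all 11959 genes tested, 14.8% fell and 13.5% rose by the same rule. The median log2 fold change was -0.57 over the 8 niche genes and 0.0045 over all genes tested. Both siZBP1 values lay below both siScr values for 6 of the 8, against 33.7% of all genes tested, and above them for 1, Angpt1, against 34.7% of all genes tested. The smallest two-sided p that exact permutation of 2 and 2 samples allows is 0.333, so the calls rest on the variance shared by limma. In these bulk samples, fewer cells of a type and less RNA per cell cannot be told apart.

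**Figure D1:**
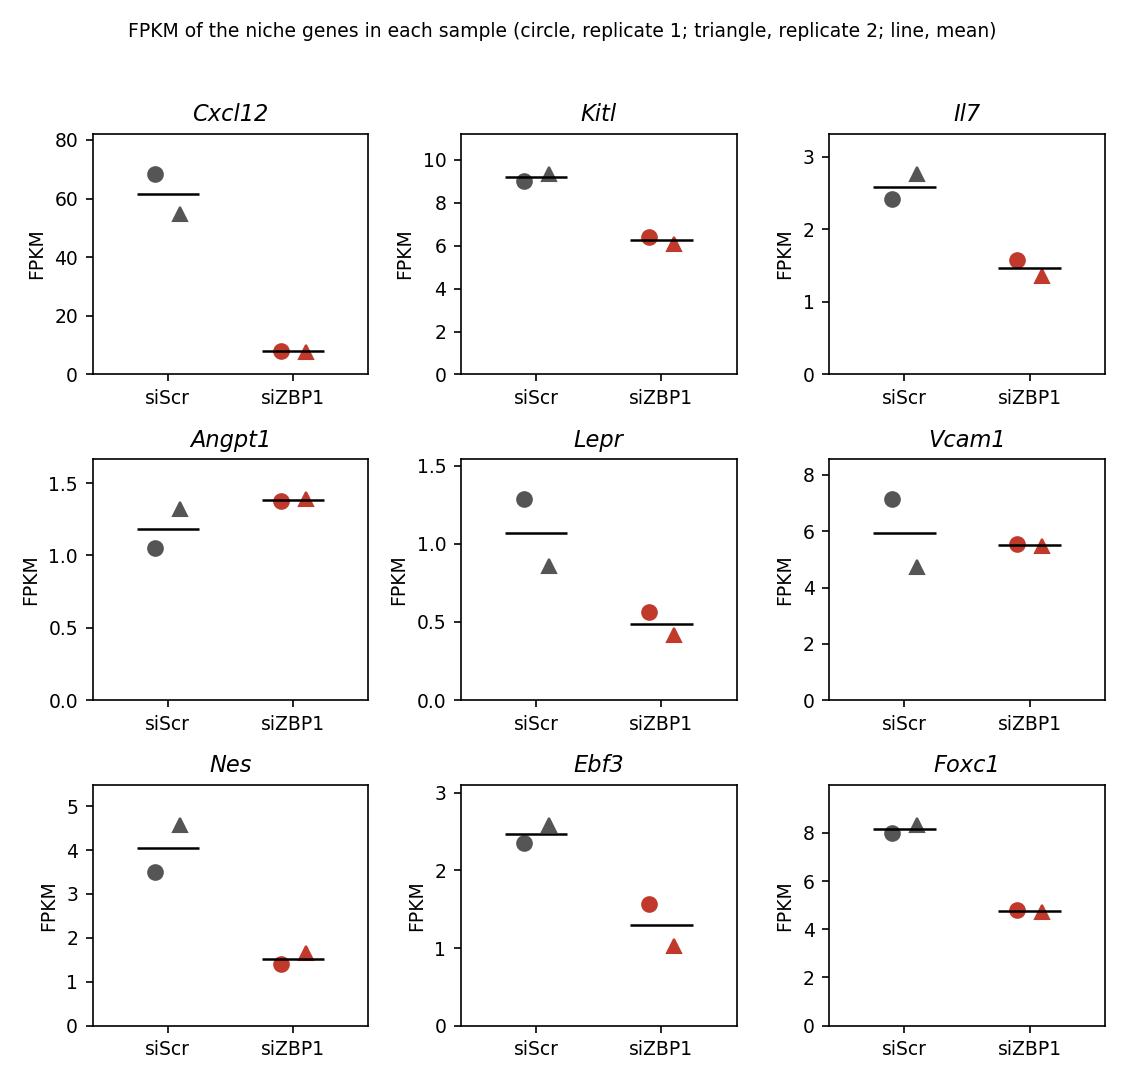
FPKM (linear axis from 0) of the 9 niche genes in each sample, with siScr samples in grey, siZBP1 samples in red, circles for replicate 1, triangles for replicate 2 and a line at the group mean. Cxcl12 moves most, from 68.4 and 54.6 FPKM to 8.06 and 7.71 FPKM, and only for Vcam1 do the values of both groups interleave.

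Cxcl12 encodes the chemokine that binds Cxcr4 and holds hematopoietic stem cells and B cell progenitors in the marrow. It occupies bases 117168535 to 117181367 of chromosome 6 (GRCm38, as for all positions here), plus strand, and no other annotated gene overlaps it. It was at 68.4 and 54.6 FPKM in the siScr samples and at 8.06 and 7.71 FPKM in the siZBP1 samples. Both siZBP1 values lay far below both siScr values. The mean fell from 61.5 ± 9.79 to 7.89 ± 0.249 FPKM (SD, n = 2 each), 7.80-fold lower, which leaves 12.8% of the siScr level. The limma log2 fold change was -2.81 (SE 0.12, 95% interval -3.11 to -2.50, adjusted p = 0.00210). Among the genes above 0 in a sample, Cxcl12 stood at the 93.0 and 91.3 percentile in siScr cells and at the 54.3 percentile in both siZBP1 samples. In the 4 fits that each leave out 1 sample the log2 fold change was -2.97 to -2.65 with adjusted p from 0.00895 to 0.0603, and it missed the threshold in both fits that keep 1 siZBP1 sample.

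The promoter of Cxcl12 is shown because this gene changed most, and because the study concerns Wnt/β-catenin signaling, whose TCF/LEF factors bind short known words. It covers chr6:117168285-117168584 of GRCm38.p6, plus strand, from RefSeq, with 250 bases before and 50 after the start, and capitals mark a TCF/LEF word.
Cxcl12 promoter: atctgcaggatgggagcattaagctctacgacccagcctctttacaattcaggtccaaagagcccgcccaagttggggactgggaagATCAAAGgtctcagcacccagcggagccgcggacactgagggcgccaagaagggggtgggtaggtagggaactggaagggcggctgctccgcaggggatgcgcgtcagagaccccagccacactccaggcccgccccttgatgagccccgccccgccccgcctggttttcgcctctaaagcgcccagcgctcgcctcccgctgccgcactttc
The word ATCAAAG begins 163 bases before the start and is the reverse complement of CTTTGAT. Both strands were searched. A TCF/LEF word was CTTTG followed by A or T at each of the next 2 bases, an EBF word was TCCC and GGGA with any 2 bases between them, and a forkhead word was GTAAA followed by CA or TA. Of the 9 niche genes 6 had a promoter in the table, Cxcl12, Kitl, Lepr, Nes, Ebf3 and Foxc1, with 7 windows in all, and the Cxcl12 word was the only match. Among 32851 promoter windows of the same length, 16.9% held a TCF/LEF word, 0.904% an EBF word and 6.54% a forkhead word.

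Kitl encodes stem cell factor, the ligand of the receptor Kit on stem cells, and lies on chromosome 10 from 100015630 to 100100416 on the plus strand. It was at 9.01 and 9.35 FPKM in siScr cells and at 6.42 and 6.07 FPKM in siZBP1 cells. The groups did not overlap, and the gap between them was wider than the spread within either. The mean fell from 9.18 ± 0.239 to 6.24 ± 0.245 FPKM (SD, n = 2 each), 1.47-fold lower (limma log2 fold change -0.49, SE 0.070, 95% interval -0.68 to -0.31, adjusted p = 0.0126). The intervals of Cxcl12 and Kitl did not overlap, although the difference between them was not itself tested. Within a sample, the FPKM of Cxcl12 was 7.59 and 5.84 times that of Kitl in siScr cells and 1.26 and 1.27 times in siZBP1 cells. Kitl is made as membrane-bound and soluble forms, and FPKM per gene does not separate its 4 coding transcripts. With 1 sample left out, the adjusted p of Kitl was 0.0569 to 0.109, past the threshold in none of the 4 fits.

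Il7 encodes interleukin 7, which B and T cell progenitors need, and lies on chromosome 3 from 7569994 to 7613760 on the minus strand. It was at 2.41 and 2.77 FPKM in siScr cells and at 1.58 and 1.36 FPKM in siZBP1 cells. Both siZBP1 samples were lower than both siScr samples. The mean fell from 2.59 ± 0.249 to 1.47 ± 0.156 FPKM (SD, n = 2 each), 1.76-fold lower (limma log2 fold change -0.54, SE 0.12, 95% interval -0.86 to -0.22, adjusted p = 0.0360). This call was near the threshold. It held in 8 of 11 fits of all samples, with adjusted p from 0.0185 to 0.0580, and in none of the 4 that leave out a sample, with adjusted p from 0.0663 to 0.146. Antisense genes overlap Il7, Angpt1, Vcam1 and Ebf3, and without the strand setting of the authors' counting, which is not given in the sources used here, their reads cannot be told apart. Only 1 of these antisense genes, Gm10578 beside Ebf3, is listed in the table, at 0 in all samples but siScr replicate 2.

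Angpt1 encodes angiopoietin 1, a ligand of the receptor Tek, and lies on chromosome 15 from 42424723 to 42676977 on the minus strand. It was at 1.05 and 1.32 FPKM in siScr cells and at 1.37 and 1.39 FPKM in siZBP1 cells. Both siZBP1 values were the higher ones, but the nearest values of the groups were closer to each other than the siScr samples were. The means were 1.18 ± 0.192 and 1.38 ± 0.00844 FPKM (SD, n = 2 each), and the limma log2 fold change was 0.13 (SE 0.13, 95% interval -0.22 to 0.48, adjusted p = 0.521). The interval does not reach the decreases fitted for Kitl, Il7, Foxc1, Nes or Cxcl12.

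Lepr encodes the leptin receptor, the marker by which this stroma is recognized in the marrow, and lies on chromosome 4 from 101717404 to 101815352 on the plus strand. It was at 1.28 and 0.859 FPKM in siScr cells and at 0.563 and 0.414 FPKM in siZBP1 cells. The groups did not overlap, while the siScr samples differed from each other by more than the nearest values of the groups did. The means were 1.07 ± 0.300 and 0.489 ± 0.105 FPKM (SD, n = 2 each), 2.19-fold lower in siZBP1 cells. In a fit with a minimum mean of 0.1 FPKM, in which 12.1% of 14825 genes were lower, the limma log2 fold change of Lepr was -0.47 (SE 0.14, 95% interval -0.84 to -0.11, adjusted p = 0.0759). Adding 1 before the logarithm understates changes at this level. At the rough depth above, and with the longest coding transcript as its length, Lepr rested on about 100 and 93 fragments in the siScr samples and 32 and 40 in the siZBP1 samples. This is the upper end. With the shortest coding transcript, of 208 bases, it would be 4 and 3 fragments in the siScr samples and 1 and 2 in the siZBP1 samples. Leprot, the neighboring gene of similar name, lies 58039 bases away and rose from 62.9 ± 4.45 to 85.1 ± 1.91 FPKM (SD, n = 2 each; limma log2 fold change 0.43, adjusted p = 0.0123).

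Vcam1 encodes the adhesion molecule that stem and progenitor cells bind through integrin α4β1, and lies on chromosome 3 from 116109949 to 116129688 on the minus strand. It was at 7.13 and 4.71 FPKM in siScr cells and at 5.55 and 5.49 FPKM in siZBP1 cells. The siScr values lay on either side of the siZBP1 values, so the groups overlapped. The means were 5.92 ± 1.71 and 5.52 ± 0.0431 FPKM (SD, n = 2 each), and the limma log2 fold change was -0.06 (SE 0.18, 95% interval -0.55 to 0.42, adjusted p = 0.826). Vcam1 had the widest interval of the niche genes, and its sign turned with the setting, from -0.32 to 0.19 with 1 sample left out.

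Nes encodes nestin, an intermediate filament protein of perivascular stromal cells, and lies on chromosome 3 from 87971078 to 87980451 on the plus strand. It was at 3.50 and 4.57 FPKM in siScr cells and at 1.40 and 1.66 FPKM in siZBP1 cells. The lower siScr value was above the higher siZBP1 value by more than either group's own range. The mean fell from 4.03 ± 0.755 to 1.53 ± 0.180 FPKM (SD, n = 2 each), 2.64-fold lower (limma log2 fold change -0.99, SE 0.15, 95% interval -1.38 to -0.60, adjusted p = 0.0139). Nes passed in all 11 fits of all samples and in 2 of the 4 that leave out a sample, with adjusted p from 0.0383 to 0.119, and missed in both that keep 1 siZBP1 sample.

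Ebf3 encodes an early B cell factor of stroma that keeps the marrow cavity open for hematopoiesis, and lies on chromosome 7 from 137193673 to 137314445 on the minus strand. It was at 2.35 and 2.58 FPKM in siScr cells and at 1.57 and 1.02 FPKM in siZBP1 cells. The groups did not overlap, but the siZBP1 samples differed from each other by more than the siScr samples did. The means were 2.47 ± 0.168 and 1.30 ± 0.385 FPKM (SD, n = 2 each), 1.90-fold lower in siZBP1 cells. The limma log2 fold change was -0.60 (SE 0.16, 95% interval -1.02 to -0.18) and its adjusted p of 0.0518 fell just short of the threshold. It passed in 2 of 11 fits of all samples, with a robust variance and without small RNA genes, over a range of adjusted p from 0.0249 to 0.0762.

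Foxc1 encodes a forkhead factor required for CXCL12-rich reticular cells, and lies on chromosome 13 from 31806633 to 31812476 on the plus strand in 1 exon. It was at 8.0 and 8.33 FPKM in siScr cells and at 4.80 and 4.70 FPKM in siZBP1 cells. The replicates of each group lay close together and the groups lay far apart. The mean fell from 8.16 ± 0.235 to 4.75 ± 0.0683 FPKM (SD, n = 2 each), 1.72-fold lower (limma log2 fold change -0.67, SE 0.072, 95% interval -0.86 to -0.48, adjusted p = 0.00717). With 1 sample left out, its adjusted p was 0.0368 to 0.0957 and passed in 2 of 4 fits, those that keep both siZBP1 samples.

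**Figure D2:**
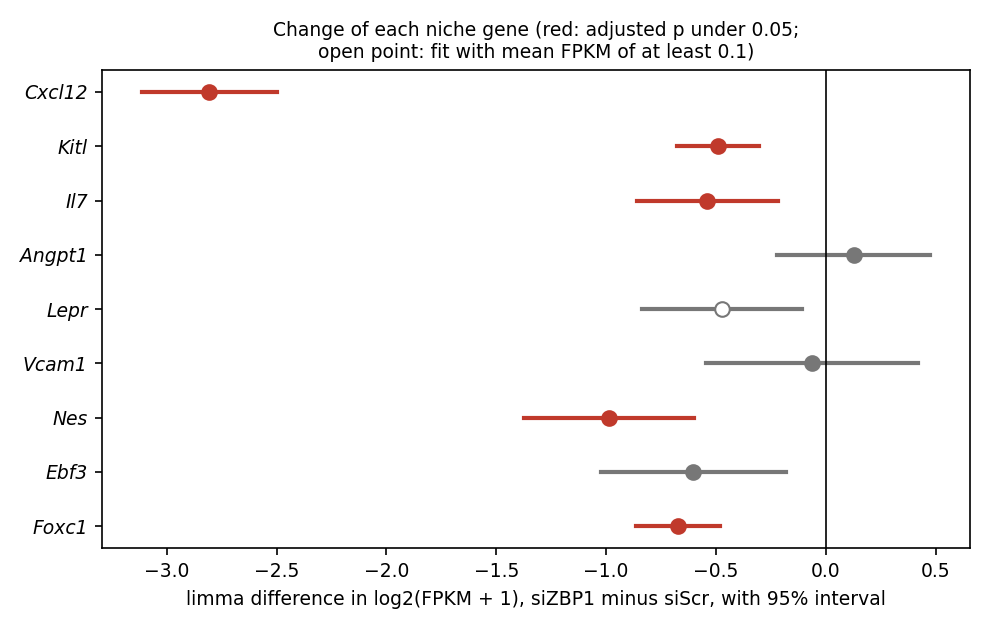
Limma difference in log2(FPKM + 1), siZBP1 minus siScr, for each niche gene (points) with its 95% interval (bars), red where the adjusted p is under 0.05 and open for Lepr, which was fitted with a minimum mean of 0.1 FPKM. Cxcl12 stands alone at -2.81, the other genes with an adjusted p under 0.05 lie between -0.99 and -0.49, and the intervals of Angpt1 and Vcam1 include 0.

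The paralogs of the transcription factors gave the following values. Ebf1, the early B cell factor that also acts in B cells and adipocytes, was at 6.79 and 6.70 FPKM in siScr cells and at 3.94 and 4.31 FPKM in siZBP1 cells, and fell by 0.60 on the log2 scale (limma adjusted p = 0.0113). Foxc2, the close relative of Foxc1, was at 3.85 and 3.41 FPKM in siScr cells and at 1.99 and 2.09 FPKM in siZBP1 cells, and fell by 0.61 on the log2 scale (limma adjusted p = 0.0191). Both groups were separate for both genes. Ebf2, at means of 0.397 and 0.198 FPKM, and Angpt2, the context-dependent antagonist of angiopoietin 1, at 0.753 and 0.925 FPKM, were below the minimum of the fit. By mean FPKM, Ebf1 was more abundant than Ebf2 and Ebf3 in both groups.

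In siScr cells the order by mean FPKM was Cxcl12, Kitl, Foxc1, Vcam1, Nes, Il7, Ebf3, Angpt1 and Lepr. Neighbors in this order whose replicates overlapped were Il7 with Ebf3 and Angpt1 with Lepr. In siZBP1 cells the order was Cxcl12, Kitl, Vcam1, Foxc1, Nes, Il7, Angpt1, Ebf3 and Lepr, and the replicates of Nes, Il7, Angpt1 and Ebf3 overlapped from each to the next. Cxcl12 thus remained first in both groups, at 61.5 and 7.89 FPKM. The 9 genes together summed to 103 and 89.1 FPKM in siScr cells and to 31.3 and 29.8 FPKM in siZBP1 cells. The stromal marker sum above overlapped between groups, but most of it came from Col1a2 and Vim, which did not pass. It does not show that the other stromal markers were level, since 5 of the 10 fell by limma. Without Cxcl12, the sum over the other niche genes was 34.7 and 34.5 FPKM in siScr cells and 23.2 and 22.1 FPKM in siZBP1 cells, so Cxcl12 made up most of the difference. Cxcl12 was 0.0327 and 0.0302 times as abundant as Col1a2, a collagen gene of all stroma, in siScr cells and 0.00441 and 0.00426 times in siZBP1 cells. Col1a1, a collagen gene counted here with the osteoblast markers, was not level. It fell from 2793 to 1160 FPKM (limma log2 fold change -1.26, adjusted p = 0.00480).

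The genes with profiles over the 4 samples nearest to the niche genes that fell were found by the Euclidean distance between log2(FPKM + 1) values centered per gene. For Cxcl12 they were Mir8102, a microRNA gene listed at 0 in both siZBP1 samples, Cbr2 and Timp3, an inhibitor of metalloproteinases, at distances of 0.161, 0.168 and 0.251. Timp3 was at 901.6 and 732.5 FPKM in siScr cells and at 127.7 and 140.1 FPKM in siZBP1 cells. For Nes they were Adra2a, Rtn2 and Wisp1, of which Adra2a was at a distance of 0.0182. For Foxc1 they were Bcar1, Nfe2l2 and Als2cl, for Kitl Pvr, Egln2 and 1700019L03Rik, and for Il7 St5, Npm3 and Exosc4, with nearest distances of 0.0292, 0.0283 and 0.0510. All of these are likenesses over 4 samples only, in which any gene with the same difference between groups stands near.

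The receptors of the niche factors were measured in the same samples. Of 15 receptor genes, 9 were tested, 4 rose, 1 fell and 4 did not pass, with a median log2 fold change of 0.15. Cxcr4, the receptor of CXCL12, was at 137.9 and 159.8 FPKM in siScr cells and at 220.9 and 226.3 FPKM in siZBP1 cells. Both siZBP1 samples were higher, and the mean rose 1.5-fold (limma log2 fold change 0.59, SE 0.079, adjusted p = 0.0109). Within a sample, Cxcr4 was 2.01 and 2.93 times as abundant as Cxcl12 in siScr cells and 27.4 and 29.4 times in siZBP1 cells. Ackr3, the scavenger receptor of CXCL12, was at means of 1.68 and 1.46 FPKM and the groups overlapped (limma adjusted p = 0.638).

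Kit was at 0.696 and 1.11 FPKM in siScr cells and at 0.549 and 0.406 FPKM in siZBP1 cells, below the minimum of the fit. Il7r was at 38.2 and 36.2 FPKM in siScr cells and at 43.1 and 42.9 FPKM in siZBP1 cells, and rose by 0.20 on the log2 scale (limma adjusted p = 0.0374), a call that was lost without a variance trend and with a replicate block (adjusted p = 0.0757 and 0.0518, Il7r log2 fold change 0.20 in both). The groups were separate for both genes, in opposite directions. Il2rg, the common chain that joins Il7r in the interleukin 7 receptor, was at means of 43.9 and 46.3 FPKM and did not pass (limma adjusted p = 0.430). Itga4, the integrin chain that binds Vcam1, rose from 13.2 ± 0.227 to 17.5 ± 0.680 FPKM (SD, n = 2 each; limma log2 fold change 0.38, adjusted p = 0.0143). Its partner Itgb1 was at 397.6 and 385.6 FPKM with overlapping groups (limma adjusted p = 0.646), whereas Itgb7, the other chain that pairs with it, fell from 1.74 to 0.575 FPKM (limma log2 fold change -0.80, adjusted p = 0.0409), a call lost with a pseudocount of 0.1 and after quantile normalization. Tek, the receptor of angiopoietin 1, was at means of 0.0676 and 0.0186 FPKM, and Lep, the ligand of the leptin receptor, was listed at 0 in every sample.

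**Figure D3:**
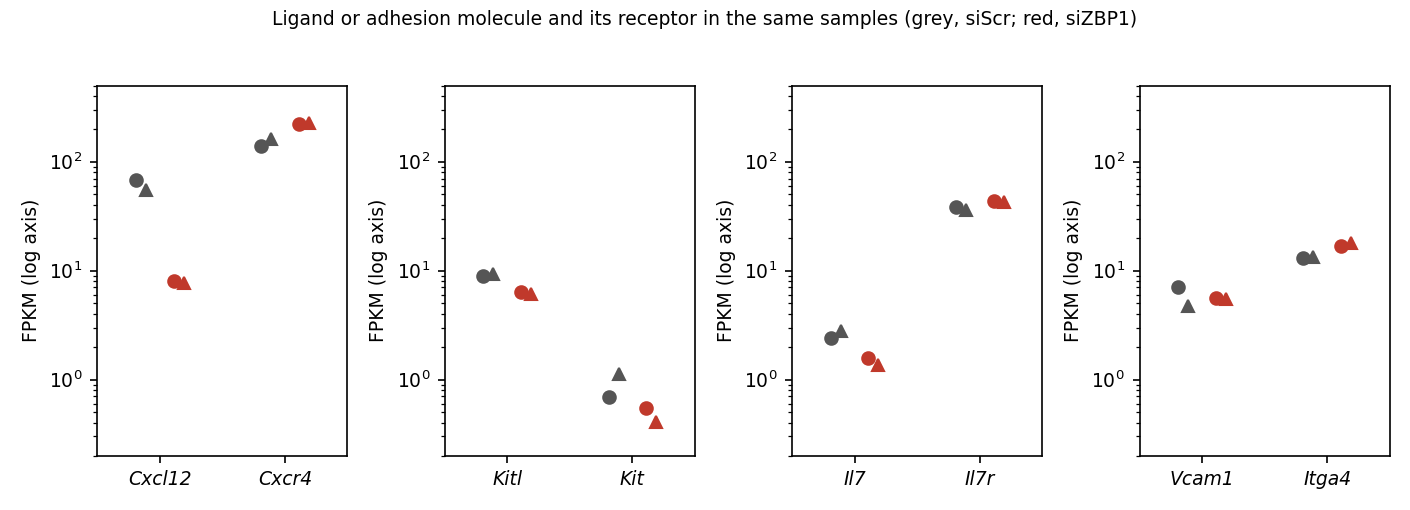
FPKM (log axis) of 4 niche genes, each beside a receptor gene, in every sample, with siScr in grey, siZBP1 in red, circles for replicate 1 and triangles for replicate 2. Cxcl12 lies lower and Cxcr4 higher in both siZBP1 samples (7.71 to 8.06 and 220.9 to 226.3 FPKM), and Kit lies near or below 1 FPKM in all samples.

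Genes that bind, cut or regulate CXCL12, Cxcr4 and Ackr3 among them, moved in both directions. Of 14 such genes 9 were tested, of which 4 fell, 3 rose and 2 did not pass, with a median log2 fold change of -0.42. Ctsk, the osteoclast and stromal protease that can cleave CXCL12, fell from 42.3 to 27.5 FPKM (limma log2 fold change -0.60, adjusted p = 0.00543). Mmp14, a membrane metalloproteinase, fell from 232.8 to 156.9 FPKM (limma log2 fold change -0.56, adjusted p = 0.0211). Gja1, the connexin 43 gene through which stromal cells couple for CXCL12 release, fell from 92.3 to 60.5 FPKM (limma log2 fold change -0.59, adjusted p = 0.0225), while Gjc1, at 1.39 and 0.619 FPKM, did not pass (limma adjusted p = 0.0882), although it did without small RNA genes (adjusted p = 0.0498). Besides Cxcr4, the genes that rose, named after their values were seen, were those of the regulators Hif1a, from 110.5 to 151.1 FPKM (limma log2 fold change 0.45, adjusted p = 0.00436), and Cebpb, from 35.9 to 47.1 FPKM (limma log2 fold change 0.38, adjusted p = 0.0250).

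Of 35 other secreted or adhesive niche factors, 34 were listed and 25 tested. By limma 8 fell, 7 rose and 10 did not pass, with a median log2 fold change of 0.12. Bmp4, a ligand of stromal and hematopoietic cells, was at 5.59 and 6.52 FPKM in siScr cells and at 0.797 and 0.832 FPKM in siZBP1 cells, 7.43-fold lower (limma log2 fold change -1.96, SE 0.11, adjusted p = 0.00284). Angptl2, an angiopoietin-like factor, fell from 104.8 to 46.5 FPKM (limma log2 fold change -1.15, adjusted p = 0.00286), and the matrix protein gene Postn fell from 1376 to 589.5 FPKM (limma log2 fold change -1.22, adjusted p = 0.00343). Spp1, the osteopontin gene, which restrains stem cell numbers and is also made by macrophages, rose from 2071 to 4549 FPKM (limma log2 fold change 1.19, adjusted p = 0.0356), a call lost in 4 of the fits of all samples, those with no filter, without a variance trend, with a robust variance and with quantile normalization. Tgfb1, at 109.9 and 119.7 FPKM, and Gas6, at 218.2 and 202.1 FPKM, were the most abundant factors that did not pass. Csf1, which encodes the growth factor of macrophages and was singled out after its values were seen, fell from 96.6 ± 0.807 to 45.8 ± 0.747 FPKM (SD, n = 2 each; limma log2 fold change -1.06, adjusted p = 0.00185), while its receptor Csf1r rose from 468.6 to 571.1 FPKM (limma log2 fold change 0.28, adjusted p = 0.0147). Nov, known also as Ccn3, was counted outside the list and fell from 2.46 to 0.970 FPKM (limma log2 fold change -0.81, adjusted p = 0.0200).

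Genes that mark leptin receptor stroma moved mostly downward where they moved. Of 34 such genes 27 were tested, of which 12 fell, 3 rose and 12 did not pass, with a median log2 fold change of -0.46. Il1rn, an interleukin 1 antagonist, fell 3.95-fold from 35.9 to 9.10 FPKM (limma adjusted p = 0.00711), Serping1, a complement inhibitor, fell 3.19-fold from 44.2 to 13.9 FPKM (limma adjusted p = 0.00546), and Igfbp5 fell 2.16-fold from 16.9 to 7.79 FPKM (limma adjusted p = 0.00768). Nt5e, the surface enzyme CD73, moved the other way, at 2.73 and 5.48 FPKM in siScr cells and at 20.8 and 21.3 FPKM in siZBP1 cells (limma log2 fold change 2.16, adjusted p = 0.00954). Apoe, at 3800 and 2962 FPKM, and Ly6a, at 220.6 and 157.8 FPKM, did not pass (limma adjusted p = 0.0642 and 0.0846). Apoe passed in 5 other fits of all samples, with adjusted p from 0.0131 after quantile normalization to 0.0478 with a pseudocount of 0.1, and Ly6a passed without small RNA genes (adjusted p = 0.0352) and with the replicate block (adjusted p = 0.0338), lower in siZBP1 cells in each case. Adipoq, which marks the same stroma in the marrow, was at means of only 0.130 and 0.0472 FPKM.

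General stromal markers fell in part. Of 10, all were tested, 5 fell and 5 did not pass, with a median log2 fold change of -0.39. Prrx1, a homeobox gene of limb and marrow mesenchyme, fell from 47.5 to 23.2 FPKM (limma log2 fold change -1.0, adjusted p = 0.00520), Pdgfrb fell from 44.3 to 32.5 FPKM (limma log2 fold change -0.44, adjusted p = 0.0108), Cd44 fell from 89.4 to 69.7 FPKM (limma log2 fold change -0.35, adjusted p = 0.00695), and Lum fell from 3.27 to 0.121 FPKM (limma log2 fold change -1.87, adjusted p = 0.0167). Col1a2, at 1949 and 1820 FPKM, and Vim, at 1385 and 1407 FPKM, did not pass, and their groups overlapped. Prrx1, Pdgfra, Pdgfrb, Thy1, Eng and Cd44 stand in both this list and that of leptin receptor stroma.

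Set against the median of the stromal markers, an alternative added after the data were seen and without a test, the log2 change of Cxcl12 was -2.41 and that of Nes was -0.59. That of Foxc1 was -0.28, of Ebf3 -0.21, of Il7 -0.14 and of Kitl -0.10, and the median over the 8 tested niche genes was -0.18. Vcam1 and Angpt1 were then at 0.33 and 0.52. On this scale the distance of Cxcl12 from that median was several times that of any other niche gene, while Kitl and Il7 lay close to the median. The single markers were spread widely around it, from -1.87 for Lum to 0.12. The scale also understates changes of low genes. By the ratio of group means, not set against the markers, the log2 change was -0.82 for Il7, -1.40 for Nes and -2.96 for Cxcl12.

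Of 10 osteoblast markers 8 were tested, of which 7 fell and 1, Spp1, rose, with a median log2 fold change of -1.39. Alpl, the alkaline phosphatase gene, fell 8.22-fold from 199.95 to 24.3 FPKM (limma adjusted p = 0.00388), Sp7, the osterix gene, fell 8.05-fold from 28.8 to 3.57 FPKM (limma adjusted p = 0.00401), Ibsp fell 4.79-fold (limma adjusted p = 0.00221) and Bglap2 fell 4.17-fold (limma adjusted p = 0.0133). The fall of Cxcl12, at 7.80-fold, lay between those of Sp7 and Ibsp. Their part in the change of Cxcl12 was not tested.

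Of 10 macrophage markers 9 were tested, of which 5 rose and 4 did not pass, with a median log2 fold change of 0.26. Siglec1 alone of the tested markers had a log2 fold change below 0. It was at means of 45.7 and 35.8 FPKM in groups that did not overlap, and did not pass (limma log2 fold change -0.33, adjusted p = 0.0834). Mrc1, the mannose receptor gene, rose from 42.7 to 102.1 FPKM (limma log2 fold change 1.25, adjusted p = 0.00789), Lyz2 from 3230 to 5637 FPKM (limma log2 fold change 0.81, adjusted p = 0.0191, lost after quantile normalization at 0.62 and adjusted p = 0.0859) and Itgam from 89.7 to 115.8 FPKM (limma log2 fold change 0.37, adjusted p = 0.0238). Adgre1, the F4/80 gene, was at 291.0 and 316.4 FPKM and Fcgr1 at 62.9 and 64.1 FPKM, and neither passed (limma adjusted p = 0.165 and 0.764), although Adgre1 did after quantile normalization (adjusted p = 0.0491). Of 8 pan-hematopoietic markers 7 were listed and 4 tested, of which Cd53 rose from 130.1 to 185.2 FPKM (limma adjusted p = 0.00426) and Laptm5 from 545.0 to 721.4 FPKM (limma adjusted p = 0.00883), while Ptprc, at 76.7 and 85.3 FPKM, and Coro1a, at 104.2 and 104.4 FPKM, did not pass. The pan-hematopoietic sum was 845.7 and 866.5 FPKM in siScr cells and 1113 and 1080 FPKM in siZBP1 cells. The part of macrophage RNA in the changes of the niche genes was not tested. Nor was its part in those of Cxcr4, Il7r, Itga4, Csf1r, Il1rn and Apoe.

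Markers of other cells were low. The 10 endothelial markers summed to between 9.78 and 10.6 FPKM in all samples, and the tested ones, Kdr at 2.45 and 3.02 FPKM and Vwf at 4.88 and 4.55 FPKM, did not pass. The 6 Schwann cell markers summed to between 2.67 and 3.52 FPKM, with none tested. None of the 10 lymphoid markers exceeded 0.424 FPKM in any sample, and Rag1, which lymphocyte progenitors use to rearrange their receptor genes, was listed at 0 throughout.

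**Figure D4:**
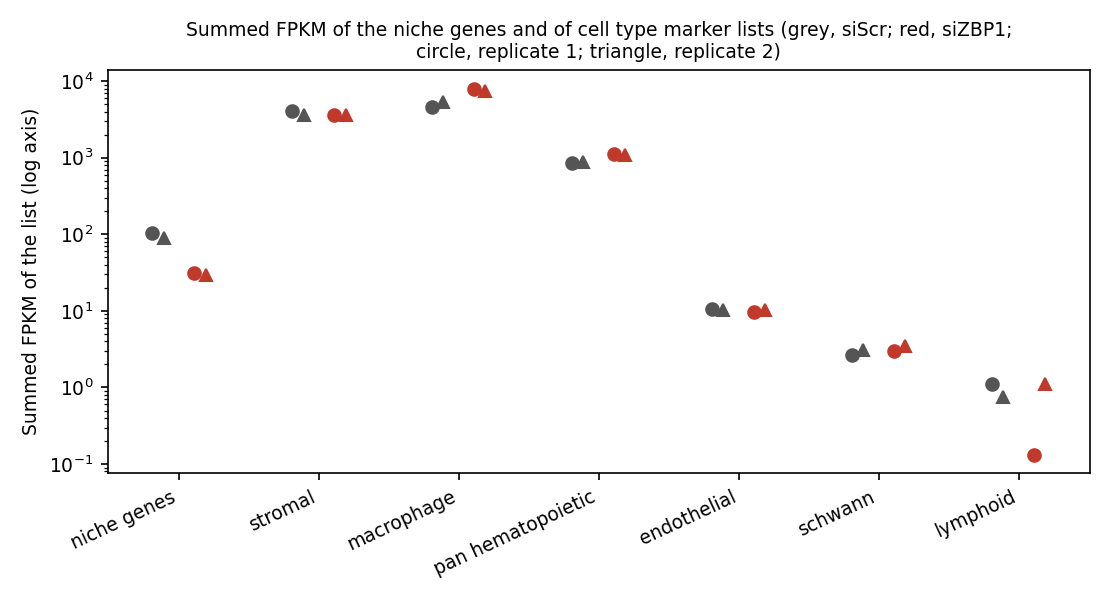
Summed FPKM (log axis) of the 9 niche genes and of 6 lists of cell type markers in each sample, with siScr in grey, siZBP1 in red, circles for replicate 1 and triangles for replicate 2. The niche sum is lower in siZBP1 cells (29.8 to 31.3 against 89.1 to 103 FPKM), mostly through Cxcl12. The macrophage sum is higher (7474 to 8000 against 4555 to 5404 FPKM), mostly through Lyz2. The stromal sum, most of it from Col1a2 and Vim, overlaps, although 5 of the 10 stromal markers fell by limma.

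How far the calls rest on single samples is shown by the plot of the niche genes under each setting. With siZBP1 replicate 1 or siZBP1 replicate 2 left out, 0 of the 8 tested niche genes passed by limma, although 6 were lower at an unadjusted p under 0.05 in each case, and only 23 and 38 of all 11959 genes were called lower. With siScr replicate 1 or siScr replicate 2 left out, the log2 fold change was -2.65 and -2.97 for Cxcl12 and -0.52 and -0.47 for Kitl. In the same fits it was -0.61 and -0.47 for Il7, -1.14 and -0.83 for Nes and -0.70 and -0.65 for Foxc1. Ebf3 was at -0.65 and -0.55, Angpt1 at 0.037 and 0.22 and Vcam1 at 0.19 and -0.32. Such fits leave 1 sample in a group, whose spread is taken to equal that of the other. The log2 fold changes of Cxcl12, Kitl, Foxc1, Nes, Il7 and Ebf3 were below 0 in all of these fits. For these genes both siZBP1 values lay below both siScr values, which fixes the sign, so it is not separate evidence.

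**Figure D5:**
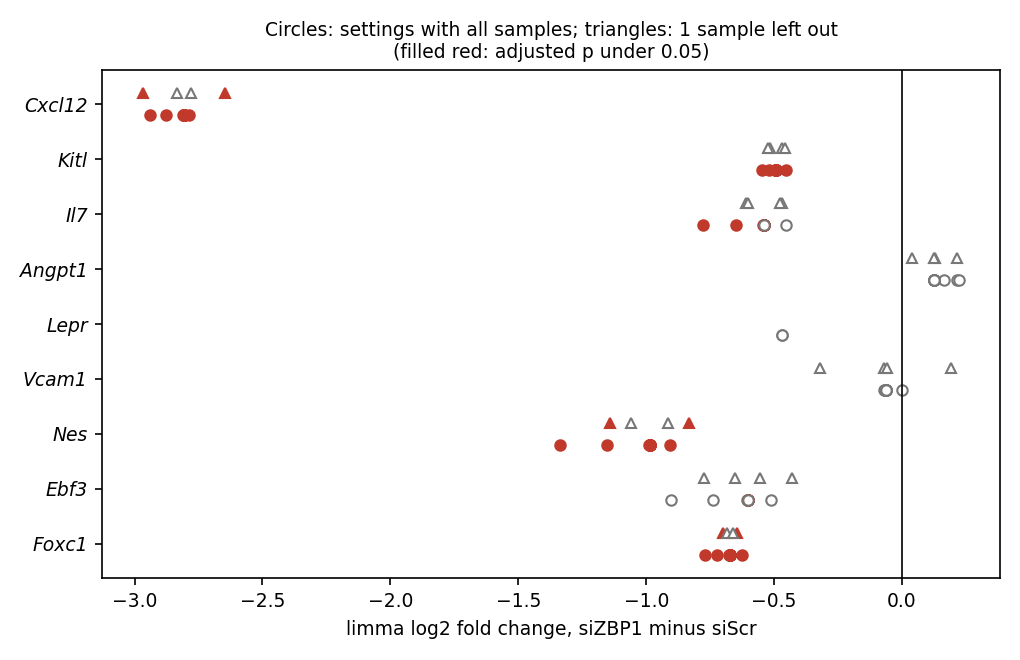
Limma log2 fold change (siZBP1 minus siScr) of each niche gene under the settings that keep all samples (circles) and with each sample left out (triangles), filled red where the adjusted p is under 0.05, with points of equal value hiding one another (red under open circles for Il7 and Ebf3). Cxcl12 stays between -2.97 and -2.65, and Vcam1 lies on both sides of 0, from -0.32 to 0.19.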

How the data were processed

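RNA-seq values of 4 mBMSC samples were analysed, 2 siScr and 2 siZBP1, grouped by their labels. The deposited values are FPKM per gene and sample, which the authors made from TruSeq libraries mapped to mm10 with TopHat. The paper names HTSeq for the extraction of FPKM, while the submitters' processing notes name Cufflinks, and the annotation, filters and strand setting are not given in the sources used here. Read numbers were not used here. The table held 24346 rows, with 2 symbols listed more than once and kept as separate rows, and 6558 rows at 0 in all samples. The authors' group means in the table were not used in tests.

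Log2(FPKM + 1) of the 11959 genes whose FPKM averaged at least 1 over the 4 samples was fitted with limma 3.58.1 (R 4.3.3), with a variance trend and no block, and p-values were adjusted by Benjamini and Hochberg over all genes tested at 0.05. A fold change on this scale understates the change of low genes. Folds in words are ratios of group means of FPKM. On data simulated for this comparison over 11959 genes, calls were made for 96 of 100 genes with a log2 change of 0.5, 100 of 100 with a log2 change of 1.5 and 10 of 11718 without change. The simulated errors were normal, with a spread smoothed over genes of similar level, so they were more even than in the data. A far smaller share of genes was changed than was called here, and only genes whose mean level exceeded 1.5 as log2(FPKM + 1), which leaves out Angpt1. These rates therefore need not hold for the data.

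The niche genes, the 12 gene lists (the niche genes themselves, other niche factors, receptors, CXCL12-handling genes, leptin receptor stroma, and osteoblast, macrophage, endothelial, lymphoid, Schwann, pan-hematopoietic and stromal markers) and the tests were chosen with earlier results of these data known. All 9 niche genes and Zbp1 were named. From each other list, up to 4 genes with the largest absolute log2 fold change past the threshold and up to 2 with the highest mean FPKM that did not pass were named. For each niche gene past the threshold, the 3 nearest profiles were named, as were paralogs and Leprot. Il7r, Kit, Tek, Lep, Csf1, Adipoq, Hif1a, Cebpb, Col1a1 and Siglec1 were named outside this rule, after their values were seen. Gene positions came from GENCODE M21 on GRCm38 and promoters from RefSeq. In all, 16 alternatives were planned and 1 was added after the data were seen. Python 3.11.15 was used with numpy 2.4.6, pandas 2.3.3 and matplotlib 3.10.9.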

Additional observations from a re-analysis of the deposited data

How the results depend on the processing

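Of the 8 tested niche genes 5 were called lower, and the number was 4 to 6 under 10 of the 11 other fits of all samples. The fits with no filter and with a minimum mean of 0.1 FPKM tested 9 niche genes. Over all genes, 1595 of 17788 were lower with no filter and 2076 of 11774 without small RNA genes, against 1766 of 11959. With a minimum mean of 5 FPKM the number of niche genes called lower was 3, because only 4 were then tested. None was called higher under any alternative. The median log2 fold change of the niche genes, -0.57, was -0.77 with a pseudocount of 0.1, -0.69 with 0.5, -0.48 after quantile normalization, -0.64 to -0.47 with 1 sample left out, and -0.18 relative to the stromal markers. Quantile normalization moved the median over all genes to 0.043. The log2 fold change of Zbp1 was -2.79 to -2.33 with 1 sample left out, with adjusted p from 0.00641 to 0.0748, and missed the threshold in both fits that keep 1 siZBP1 sample. With a replicate block, 4 niche genes were called lower, Il7 being lost at an adjusted p of 0.0580, and 1654 genes of all were lower and 1465 higher against 1766 and 1618 without it. The deviations of siScr replicate 1 and siZBP1 replicate 1 from their group means correlated over genes with r = -0.063 (rho = 0.039). No strong shift shared by samples of the same number was thus seen. Whether such samples were handled as pairs is not given in the sources used here, and this correlation cannot decide it. Il7 was also lost with no filter (adjusted p = 0.0522) and after quantile normalization (adjusted p = 0.0560). Signs turned for genes that had not passed. Vcam1 was at 0.00082 after quantile normalization and at -0.32 to 0.19 with 1 sample left out. Coro1a was at -0.0013 after median ratio scaling and at -0.013 to 0.019 with 1 sample left out. With 1 sample left out, ranges that include 0 were -0.20 to 0.011 for Col1a2, -0.24 to 0.038 for Gas6, -0.11 to 0.023 for Itgb1, -0.040 to 0.098 for Fcgr1, -0.21 to 0.051 for Vwf, -0.011 to 0.057 for Vim and -0.30 to 0.047 for Ackr3. The causes of these shifts were not tested. Of 133 values of the niche genes under alternatives, 99 kept their direction and their side of the threshold, or moved by less than the replicate spread where there was no test. The depth is known only roughly, and no limit for single genes was computed from it.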
